A study of Mus musculus with 12 samples.

Results

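Liver mRNA of Keap1-HKO mice was compared with liver mRNA of Keap1-KD mice, which asks what is added when hepatocytes lose the Keap1 that the knockdown leaves. The comparison rests on 6 of the 12 arrays of the series, 3 Keap1-HKO and 3 Keap1-KD, and covers 5856 genes. Keap1-KD mice carry floxed Keap1 alleles that by themselves lower Keap1 throughout the body. Keap1-HKO mice carry the same floxed alleles together with AlbCre+, a Cre recombinase driven by the albumin promoter and active in hepatocytes, so the floxed alleles are common to both groups. Wild-type and Nrf2-null mice, 3 arrays each, give the levels without Keap1 loss and without Nrf2. All mice were 8-week-old males, and each array held the liver RNA of 1 mouse. No group carried Cre without floxed Keap1, so the transgene and the loss of hepatocyte Keap1 cannot be told apart. Wild-type mice were C57BL/6, the strain the methods give for all mice, and the Nrf2-null and Keap1-KD lines had been backcrossed onto it.

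Keap1 is the adaptor that presents the transcription factor Nrf2 to a ubiquitin ligase and so keeps Nrf2 protein low in resting cells. With less Keap1, Nrf2 accumulates, enters the nucleus and binds antioxidant response elements with small Maf proteins. In liver it is known for raising enzymes of glutathione, thioredoxin and NADPH metabolism, quinone and carbonyl reductases, glutathione transferases and efflux transporters. Because the whole liver was sampled, fewer cells of a type and less RNA per cell cannot be told apart.

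Values are log2 intensities, and an intensity of 100 (6.64 on the log2 scale) was the authors' limit for selecting probe sets. The table holds only probe sets whose mean was over that limit in at least 1 genotype, so that a gene under it in Keap1-KD mice was listed because it was higher elsewhere. Arrays of Keap1-KD mice correlated with r of 0.985 to 0.992 with each other. Keap1-HKO replicate 1 correlated with replicates 2 and 3 with r of only 0.798 and 0.844, while that pair correlated with r = 0.982. Its mean absolute difference from the Keap1-KD mean was 0.868 on the log2 scale, against 0.36 and 0.285 for replicates 2 and 3. Transcripts of other tissues marked the other pair. The median of 17 pancreatic acinar genes was 13.26 and 9.79 on Keap1-HKO replicates 2 and 3, while no other array exceeded 2.49. For 14 skeletal muscle genes the medians were 10.58 and 9.20 on that pair, 10.10 on Wild-type replicate 2 and 2.38 to 3.04 elsewhere. All members of both lists, 17 of 17 and 14 of 14, were above 0 in Keap1-HKO minus Keap1-KD, and 0 passed the test (limma; 17 and 10 at an unadjusted p under 0.05, 2 and 0 by Duncan's test). In total 39 genes followed these lists, and Spink1, a pancreatic trypsin inhibitor, is the 1 gene among them that passed the test below. It stays in the counts and is not described further. The 9 hepatocyte markers lay lower in Keap1-HKO mice, with array medians of 14.96 to 15.17 against 15.42 to 15.53, and 0 of them passed the test (limma; 2 at an unadjusted p under 0.05 and 2 by Duncan's test). Macrophage medians over 16 genes were 8.38 to 8.84 and 8.63 to 8.64. Both lymphocyte markers measured had a median of 6.74 to 8.09 against 5.28 to 6.36, and the 1 erythroid marker read 7.74 to 8.63 against 9.05 to 9.23, so the groups did not overlap in either, and 0 of these 3 genes passed the test (limma; 2 at an unadjusted p under 0.05 and 2 by Duncan's test). No cholangiocyte marker was measured. The part of these differences in the results was not tested, except where values without an array are given.

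**Figure D1:**
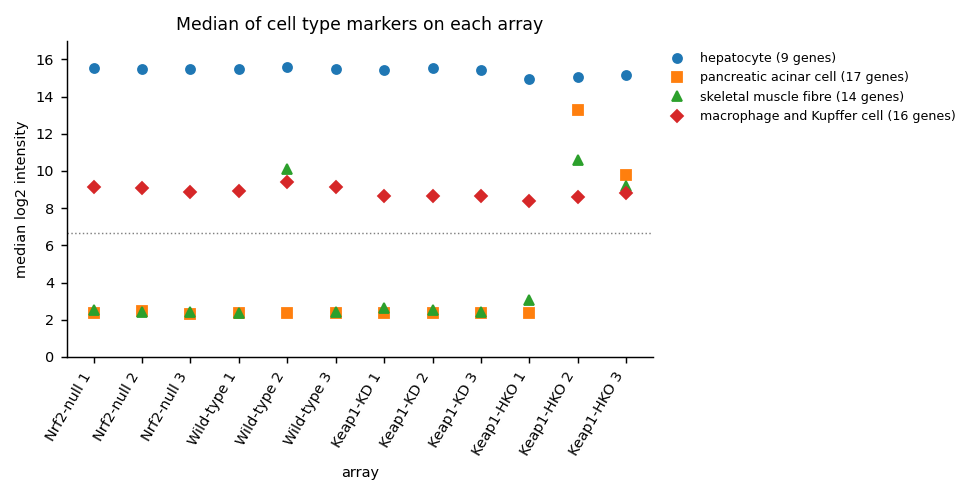
Median log2 intensity of marker genes of 4 cell types (y axis) on each of the 12 arrays (x axis). The dotted line is an intensity of 100. Pancreatic and muscle markers stand at 9.20 or above on Keap1-HKO replicates 2 and 3, and hepatocyte markers stay between 14.96 and 15.59 on every array.

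By limma over all 12 arrays, 84 genes differed between Keap1-HKO and Keap1-KD mice at an adjusted p under 0.05, which is 1.43% of the 5856 genes. Of these 46 were higher (0.786%) and 38 lower (0.649%). The higher genes included the carbonyl reductases Cbr3 and Cbr1, the quinone reductase Nqo1, the transporters Slc22a12, Abcc4, Slc1a1 and Abcc12, the peroxidase Gpx2 and the sterol-binding protein Osbpl3. The lower genes included Keap1 itself, the anion transporter Slc22a7, the lipid enzymes Scd1 and Elovl5 and the binding protein Igfbp2. The higher genes rose by 0.77 to 7.94 on the log2 scale, with a median of 1.71, and 20 of them had a Keap1-KD mean under an intensity of 100. The lower genes had log2 fold changes of −0.64 to −4.58, with a median of −1.42. At an unadjusted p under 0.05 there were 752 genes (12.8%), and by the overall test with Duncan's test 563 (9.61%). The 3 Keap1-HKO arrays lay above all 3 Keap1-KD arrays for 540 genes (9.22%) and below them for 555 (9.48%), and all 84 called genes were among these. The median over all genes was −0.00. The count of 84 depended on single arrays of the pair compared. It was 114 without Keap1-HKO replicate 1, and 35, 33, 32 and 21 without Keap1-HKO replicate 3 and Keap1-KD replicates 1, 2 and 3. Without Wild-type replicate 3 it was 37, and with only the 6 arrays of both groups in the fit 21. Without replicates 2 and 3 of the Keap1-HKO mice, the pair with pancreatic and muscle transcripts, it was 2735, with 1 array left in the group, which is then assumed to vary like the others. Without Keap1-HKO replicate 1, 71 of the 84 genes were among those called. With values under 100 raised to 100, the calls of 23 genes were lost. Called in every setting tried were Abcc4, Anxa13, Cbr1, Cbr3, Gpx2, Nqo1 and Slc22a12.

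The targeted gene followed the labels. Keap1 mRNA was 5.92, 5.59 and 5.59 on the Keap1-KD arrays and 3.34, 3.39 and 3.34 on the Keap1-HKO arrays, against a wild-type mean of 7.86. The groups did not overlap, and the difference was −2.34 on the log2 scale (standard error 0.15, limma adjusted p = 1.03e-05). Both groups lay under an intensity of 100, so no fold is given, and with values raised to 100 the difference was 0. Of Nfe2l2, which encodes Nrf2, the arrays read 8.65, 9.03 and 8.81 in Keap1-KD and 8.11, 7.93 and 8.54 in Keap1-HKO mice. All 3 Keap1-HKO arrays were lower, as for 9.48% of all genes, but the difference of −0.64 (standard error 0.17, limma adjusted p = 0.121) did not pass the test.

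Quinone, carbonyl and epoxide enzymes held the largest rise of any gene called. Of 23 measured members 3 rose and 0 fell by limma (6 and 2 at an unadjusted p under 0.05, 6 and 1 by Duncan's test), with a list median of 0.11. Cbr3, a carbonyl reductase, read 6.26, 5.76 and 5.68 on the Keap1-KD arrays and 14.30, 13.54 and 13.68 on the Keap1-HKO arrays. It lay under an intensity of 100 on every Keap1-KD, wild-type and Nrf2-null array and far above it on the Keap1-HKO arrays. Cbr3 rose by 7.94 (standard error 0.25, limma adjusted p = 3.67e-08), which is at least 151-fold. Cbr1, the related carbonyl reductase that is abundant in liver, read 10.73, 10.58 and 10.37 against 13.62, 13.07 and 13.32. Its rise of 2.77 (standard error 0.25, limma adjusted p = 0.000227) was 6.88-fold. Nqo1, which reduces quinones and is the usual marker of Nrf2 activity, read 7.29, 6.51 and 6.61 in Keap1-KD and 10.42, 9.56 and 9.99 in Keap1-HKO mice. It rose by 3.19 (standard error 0.29, limma adjusted p = 0.000225), or 9.11-fold. Members that did not pass were Akr1c19, a hydroxysteroid dehydrogenase of the aldo-keto reductase family, with a difference of 1.07 (limma adjusted p = 0.119, and 0.0158 with the replicate number as a block), Ptgr1, an alkenal and prostaglandin reductase, with 1.05 (0.126), and Ephx1, microsomal epoxide hydrolase, with 0.87 (0.172). All of their Keap1-HKO arrays were above their Keap1-KD arrays, as for 9.22% of all genes.

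In the thioredoxin and peroxiredoxin system 2 of 23 measured genes rose and 0 fell by limma (6 and 1 at an unadjusted p under 0.05, 6 and 1 by Duncan's test; list median 0.21). Srxn1, which repairs overoxidized peroxiredoxins, read 8.95, 8.61 and 8.71 in Keap1-KD and 11.18, 11.12 and 11.03 in Keap1-HKO mice. The Keap1-HKO arrays lay close together and far above the others, a rise of 2.35 (standard error 0.15, limma adjusted p = 1.58e-05) or 5.09-fold. Txnrd1, cytosolic thioredoxin reductase, read 9.60, 9.62 and 9.35 against 10.79, 10.95 and 10.89, and rose by 1.35 (standard error 0.12, limma adjusted p = 0.000187) or 2.54-fold. Its substrate thioredoxin (Txn1) differed by 0.45 (limma adjusted p = 0.211), and none of the peroxiredoxins in the list (Prdx2, Prdx3 and Prdx4) passed.

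In glutathione synthesis and recycling 2 of 14 measured genes rose and 0 fell by limma (5 and 1 at an unadjusted p under 0.05, 5 and 1 by Duncan's test; list median 0.33). Gpx2, a glutathione peroxidase best known from the gut, read 4.89, 4.17 and 4.27 in Keap1-KD and 8.94, 9.0 and 8.52 in Keap1-HKO mice. It rose by 4.37 (standard error 0.20, limma adjusted p = 6.26e-07), at least 4.56-fold. Gclc, the catalytic subunit of the rate-limiting enzyme of glutathione synthesis, read 12.61, 12.76 and 12.31 against 13.52, 13.37 and 13.42. The arrays did not overlap, and Gclc rose by 0.88 (standard error 0.17, limma adjusted p = 0.0363) or 1.82-fold. That call was lost in 10 of 12 fits that left out 1 array. Glutathione reductase (Gsr) differed by 0.66 (limma adjusted p = 0.0627), glutathione synthetase (Gss) by 0.68 (0.0682) and Gclm, the modifier subunit, by 0.06 (0.866). The probe sets of Gclm disagreed, since the 1 with the largest spread differed by −0.81. Of 10 measured genes of NADPH supply, Pgd of the pentose phosphate pathway rose and Nnt fell (3 and 1 at an unadjusted p under 0.05, 2 and 1 by Duncan's test). Pgd read 11.14, 10.33 and 10.38 in Keap1-KD and 12.65, 12.12 and 12.06 in Keap1-HKO mice, a rise of 1.66 (standard error 0.28, limma adjusted p = 0.0244) or 3.11-fold. The Pgd call was lost in 4 of 12 fits without 1 array. Nnt, the mitochondrial transhydrogenase that makes NADPH, read 10.68, 11.13 and 10.99 against 8.86, 9.90 and 9.997, lowest on Keap1-HKO replicate 1. It differed by −1.35 (standard error 0.28, limma adjusted p = 0.0471), a call lost in 11 of 12 fits without 1 array. Transketolase (Tkt) and transaldolase (Taldo1) differed by 0.53 (limma adjusted p = 0.213, and 0.043 with the block) and 0.45 (0.36).

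**Figure D2:**
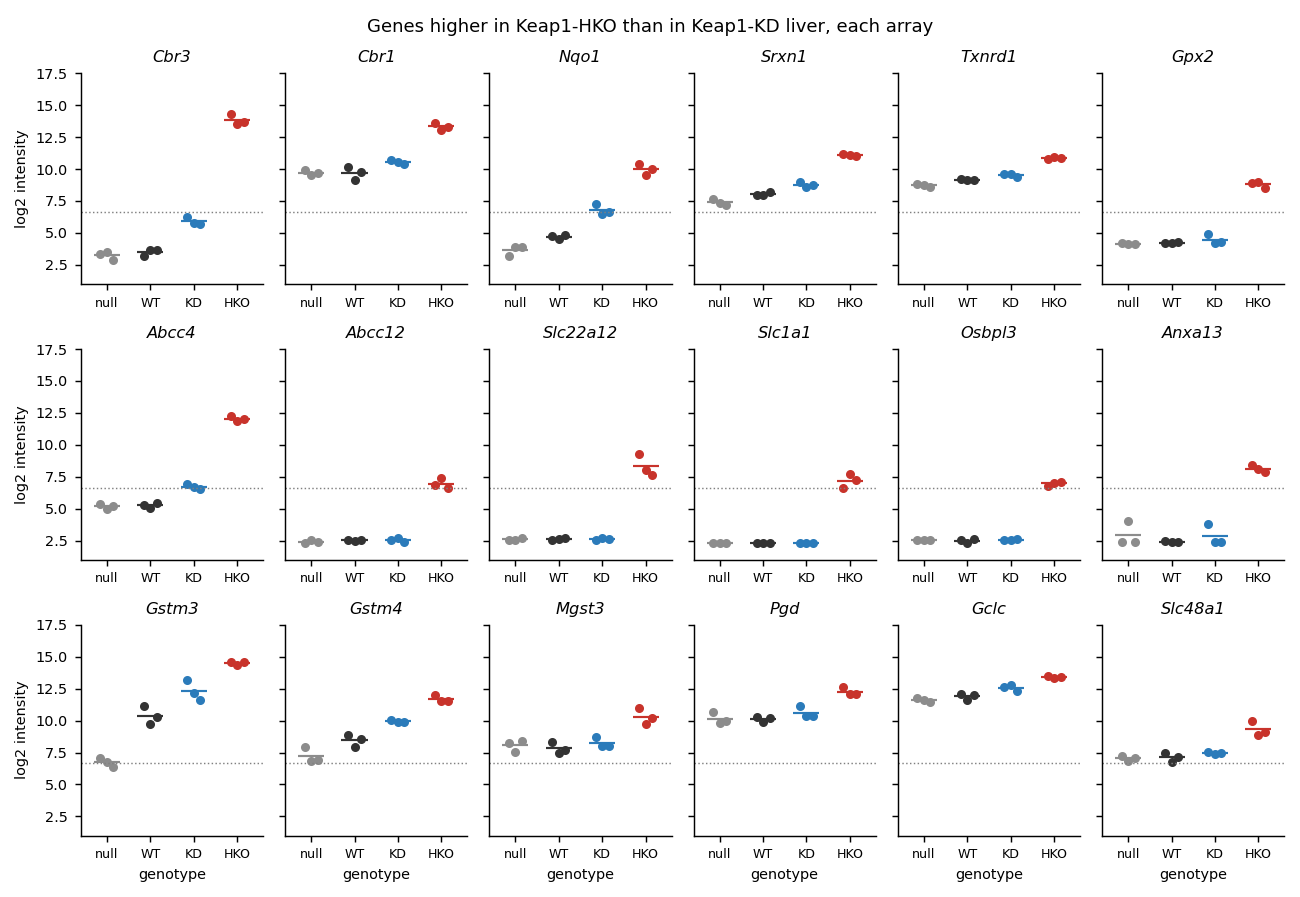
Log2 intensity (y axis) of 18 genes that were higher in Keap1-HKO than in Keap1-KD liver, on each array of the 4 genotypes (x axis; null stands for Nrf2-null, WT for Wild-type, and KD and HKO for the Keap1 genotypes). Points are mice, bars are means of 3 mice, and the dotted line is an intensity of 100. Cbr3, Gpx2, Abcc12, Slc22a12, Slc1a1, Osbpl3 and Anxa13 lie under the line in every genotype but Keap1-HKO, and 1 Keap1-HKO array each of Abcc12 (6.63) and Slc1a1 (6.60) lies just under it too.

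Of 19 measured glutathione transferases 3 rose and 0 fell by limma (9 and 0 at an unadjusted p under 0.05, 8 and 0 by Duncan's test). Their median difference was 0.45, 17 were above 0, and all Keap1-HKO arrays were above all Keap1-KD arrays for 8 of them, beside 9.22% of all genes. Gstm3, a mu-class transferase, read 13.20, 12.14 and 11.65 in Keap1-KD and 14.61, 14.37 and 14.59 in Keap1-HKO mice. Its Keap1-KD arrays were spread over more than a log2 unit and its Keap1-HKO arrays were nearly equal. Gstm3 rose by 2.19 (standard error 0.42, limma adjusted p = 0.0358), or 4.12-fold. Its other probe set rose by 3.70 (limma adjusted p = 0.0011 over all probe sets with 1 symbol). Gstm4 read 10.06, 9.86 and 9.90 against 11.99, 11.55 and 11.56, and rose by 1.76 (standard error 0.31, limma adjusted p = 0.025), or 3.42-fold. Mgst3, a microsomal transferase with peroxidase activity, read 8.68, 8.03 and 8.02 against 10.98, 9.71 and 10.17, and rose by 2.04 (standard error 0.37, limma adjusted p = 0.0262), or 4.29-fold. Gstm3, Gstm4 and Mgst3 lost the call in 8, 6 and 5 of 12 fits without 1 array. Gsta4, Gstm2, Gsta2 and Gstm1 had differences of 1.26, 1.38, 1.35 and 1.15, with limma adjusted p of 0.0501, 0.0857, 0.155 and 0.142. The arrays of each did not overlap, as for 18.7% of all genes. With the replicate number as a block the adjusted p of Gsta4, Gstm2 and Gstm1 was 0.0357, 0.00531 and 0.0342. The mu-class genes are close in sequence, and cross-hybridization between them was not tested. For glucuronidation, 0 of 14 genes passed by limma in either direction (4 higher and 0 lower at an unadjusted p under 0.05, and likewise by Duncan's test). Ugdh, which makes UDP-glucuronate, differed by 1.05 (limma adjusted p = 0.0876) and the UDP-sugar carrier Slc35d1 by 0.75 (0.0857).

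Efflux transporters were the list with the most genes called: 4 of 15 rose and 0 fell by limma (6 and 1 at an unadjusted p under 0.05, 7 and 0 by Duncan's test; list median 0.22). Abcc4 (Mrp4), which pumps organic anions and bile acids across the sinusoidal membrane, read 6.90, 6.72 and 6.51 in Keap1-KD and 12.23, 11.88 and 12.001 in Keap1-HKO mice. It rose by 5.33 (standard error 0.17, limma adjusted p = 3.67e-08), or 40.1-fold. Abcc12 (Mrp9), a transporter of the same family, read 2.56, 2.72 and 2.39 against 6.85, 7.40 and 6.63. Its Keap1-HKO arrays lay close to an intensity of 100, 1 of them just under it, so its rise of 4.41 (standard error 0.19, limma adjusted p = 5.61e-07) is at least 1.28-fold. Abcg5 and Abcg8, the subunits of the sterol exporter of the canalicular membrane, rose together. Abcg5 read 9.30, 9.42 and 9.07 against 10.67, 9.83 and 10.35 (rise of 1.02, standard error 0.20, limma adjusted p = 0.0406), and Abcg8 read 6.78, 7.30 and 6.89 against 8.72, 7.64 and 8.46 (rise of 1.29, standard error 0.26, limma adjusted p = 0.0406). Either call was lost in 11 of 12 fits without 1 array, and with the replicate block (limma adjusted p = 0.0516 and 0.0599). Abcc2 and Abcc3, the canalicular and sinusoidal exporters of conjugates, differed by 0.61 (limma adjusted p = 0.0732) and 0.79 (0.286).

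Of 12 measured uptake transporters Slc22a12 rose and Slc22a7 fell by limma (2 and 2 at an unadjusted p under 0.05 and by Duncan's test). Slc22a12, the urate transporter URAT1 of the kidney, read 2.54, 2.72 and 2.59 in Keap1-KD and 9.26, 8.00 and 7.67 in Keap1-HKO mice. It rose by 5.69 (standard error 0.32, limma adjusted p = 4.72e-06), at least 3.57-fold. Slc22a7, the organic anion transporter Oat2, read 11.18, 9.94 and 10.57 against 8.18, 8.63 and 7.68. It differed by −2.40 (standard error 0.42, limma adjusted p = 0.025), 5.4-fold lower, a call lost in 3 of 12 fits without 1 array. Slco1a1 (Oatp1a1) read 11.82, 12.06 and 12.27 in Keap1-KD mice and 6.50, 10.88 and 10.37 in Keap1-HKO mice. All Keap1-HKO arrays were lower, as for 9.48% of all genes, but replicate 1 lay far below the others and the difference of −2.80 (standard error 0.98, limma adjusted p = 0.249) did not pass.

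Of 33 measured P450 enzymes of families 1 to 4, 2 rose and 0 fell by limma (2 and 6 at an unadjusted p under 0.05, 3 and 6 by Duncan's test; list median −0.01). Cyp2g1, an olfactory P450, read 5.46, 5.56 and 5.29 in Keap1-KD and 8.16, 6.73 and 7.99 in Keap1-HKO mice, a rise of 2.19 (standard error 0.31, limma adjusted p = 0.008), at least 2.16-fold. Cyp1a2, which oxidizes caffeine and arylamines, read 14.00, 13.74 and 13.44 against 14.94, 14.85 and 14.60. It rose by 1.08 (standard error 0.19, limma adjusted p = 0.025), or 2.09-fold, and lost the call in 5 of 12 fits without 1 array. Cyp4a14, a fatty acid hydroxylase, read 8.46, 8.73 and 9.45 against 4.17, 3.16 and 5.94 with wild-type and Nrf2-null means of 4.80 and 11.59. Its difference of −4.46 (standard error 1.01, limma adjusted p = 0.0716) did not pass, and did with the replicate block (0.0237). Among 25 aldehyde dehydrogenases, oxidases and carboxylesterases Aox3 was the 1 gene called. Aox3, a molybdenum aldehyde oxidase, read 12.28, 12.62 and 12.41 against 10.88, 11.07 and 11.20, a difference of −1.39 (standard error 0.28, limma adjusted p = 0.0408) or 2.62-fold lower. Its neighbour in the family, Aox1, lay higher by 0.85 (standard error 0.23, limma adjusted p = 0.131) and did not pass. Aox3 lost its call in 10 of 12 fits without 1 array.

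Heme handling held 2 risen genes of 23 measured and 0 fallen by limma (2 and 0 at an unadjusted p under 0.05, 3 and 0 by Duncan's test). Blvrb, biliverdin reductase B, read 11.97, 11.88 and 11.42 in Keap1-KD and 14.11, 13.22 and 13.48 in Keap1-HKO mice, a rise of 1.85 (standard error 0.29, limma adjusted p = 0.014) or 3.67-fold. Slc48a1, which carries heme out of endosomes and lysosomes, read 7.5, 7.41 and 7.47 against 9.96, 8.88 and 9.14. It rose by 1.87 (standard error 0.27, limma adjusted p = 0.00827), or 3.85-fold, and was highest on replicate 1. Ferritin heavy chain (Fth1) differed by 0.17 (limma adjusted p = 0.553).

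Other risen genes are not known as detoxifying enzymes, and several had means under an intensity of 100 in all genotypes but Keap1-HKO. Osbpl3, an oxysterol-binding protein, had the lowest p of all 5856 genes. It read 2.56, 2.57 and 2.59 in Keap1-KD and 6.81, 6.99 and 7.12 in Keap1-HKO mice, a rise of 4.40 (standard error 0.12, limma adjusted p = 3.32e-08), at least 1.26-fold. Slc1a1, a transporter of glutamate and cysteine, read 2.3, 2.3 and 2.29 against 6.60, 7.74 and 7.27, a rise of 4.91 (standard error 0.23, limma adjusted p = 7.72e-07), at least 1.55-fold. Anxa13, an annexin of epithelial cells, read 3.81, 2.35 and 2.37 against 8.43, 8.11 and 7.87, a rise of 5.29 (standard error 0.47, limma adjusted p = 0.000221), at least 2.85-fold. The bounds take every value under 100 as 100, and with values so raised the calls of Osbpl3, Slc1a1, Abcc12, Cyp2g1 and Scd2 were lost. Serpinb1a, an inhibitor of neutrophil elastase, read 4.05, 5.13 and 6.43 against 11.17, 9.0 and 10.98, a rise of 5.18 (standard error 0.91, limma adjusted p = 0.025), at least 16.1-fold. Its 3 arrays were spread widely in both groups, and the call was lost in 4 of 12 fits without 1 array. Lcn2, a siderophore-binding acute-phase protein, read 6.90, 6.01 and 6.02 against 8.01, 9.53 and 8.29, a rise of 2.3 (standard error 0.41, limma adjusted p = 0.025). Lcn2 lost its call in 4 of 12 fits without 1 array. It was the 1 gene called of 49 complement, coagulation and acute-phase genes (3 higher and 9 lower at an unadjusted p under 0.05, 1 and 8 by Duncan's test). Galectin 1 (Lgals1) rose by 2.07 (standard error 0.32, limma adjusted p = 0.014). Slc20a1, a phosphate carrier, rose by 1.5 (standard error 0.26, limma adjusted p = 0.025), and Fkbp5, a chaperone of the glucocorticoid receptor, by 1.16 (standard error 0.16, limma adjusted p = 0.00803). The calls of Slc20a1 and Fkbp5 were lost in 5 and 1 of 12 fits without 1 array. Plekhb1, Fam241b and Rasgrp2 were among the other risen genes, with calls lost in 2, 9 and 10 of 12 fits without 1 array. The calls of Fam241b and Rasgrp2 were also lost with values raised to 100.

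The consensus of the antioxidant response element was searched as the letters TGACNNNGC, on both strands, in the 250 bases before each RefSeq gene start (build GRCm38.p6). Of the 46 risen genes 37 had such a window and 3 held the letters (8.11%). Of the 38 fallen genes 27 had a window and 3 held them (11.1%), beside 14.3% of the 4820 tested genes with a window and 11.5% of all 27025 genes with one. The share among the risen genes is thus no higher than the background of this short window. The matches of risen genes are shown with up to 30 bases on each side, 5′ to 3′ along the gene's strand and with the 9 letters in capitals, since Abcc4 and Txnrd1 are among the genes described above. In Abcc4 the letters begin 25 bases before a first start site and 23 bases before the other, and in Txnrd1 and Slc20a1 92 and 165 bases before the start.
Abcc4, first start, chr14:118706220-118706274, minus strand: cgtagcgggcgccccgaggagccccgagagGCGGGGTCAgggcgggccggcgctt
Abcc4, other start, chr14:118676932-118676984, minus strand: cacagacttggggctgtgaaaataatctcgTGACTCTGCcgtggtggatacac
Txnrd1, chr10:82859084-82859152, plus strand: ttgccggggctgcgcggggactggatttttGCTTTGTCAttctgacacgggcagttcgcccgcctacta
Slc20a1, chr2:129206901-129206969, plus strand: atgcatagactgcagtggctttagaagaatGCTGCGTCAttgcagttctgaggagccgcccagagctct
In 3 of the 4 stretches the letters lie on the opposite strand and read in reverse. No match was found in the windows of Cbr3, Cbr1, Nqo1, Gpx2 or Srxn1, which says only that these letters are not in those 250 bases.

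Of 30 measured genes of fatty acid and triglyceride synthesis 1 rose and 2 fell by limma (2 and 6 at an unadjusted p under 0.05, 1 and 5 by Duncan's test; list median −0.31). Scd1, the main liver desaturase that makes oleate, read 15.36, 15.11 and 15.32 in Keap1-KD and 13.72, 13.04 and 14.16 in Keap1-HKO mice. It differed by −1.62 (standard error 0.24, limma adjusted p = 0.0117), 2.94-fold lower. Elovl5, which elongates polyunsaturated fatty acids, read 13.69, 13.30 and 13.51 against 11.91, 11.57 and 12.26, a difference of −1.59 (standard error 0.24, limma adjusted p = 0.0131), 2.96-fold lower. Each of these calls was lost without Keap1-KD replicate 1 and without Keap1-KD replicate 3. Scd2, a related desaturase that is low in adult liver, moved the other way and read 5.64 on each Keap1-KD array and 6.45, 6.83 and 7.71 on the Keap1-HKO arrays (rise of 1.35, standard error 0.27, limma adjusted p = 0.0408), a call lost in 11 of 12 fits without 1 array. Elovl2 and Fads1, of the same polyunsaturated pathway as Elovl5, differed by −1.30 (limma adjusted p = 0.0655) and −0.85 (0.15), and passed with the replicate block (0.0462 and 0.0378). Apoa4, an apolipoprotein of triglyceride-rich particles, read 11.53, 10.33 and 10.96 in Keap1-KD and 9.68, 9.46 and 9.31 in Keap1-HKO mice, with a wild-type mean of 9.55. The difference of −1.46 (standard error 0.29, limma adjusted p = 0.0406) thus came with Keap1-KD levels above wild-type and Keap1-HKO levels beside it, and the call was lost in 9 of 12 fits without 1 array. Apoa4 was the 1 gene called among 25 apolipoproteins and lipid carriers (0 higher and 6 lower at an unadjusted p under 0.05 and by Duncan's test).

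**Figure D3:**
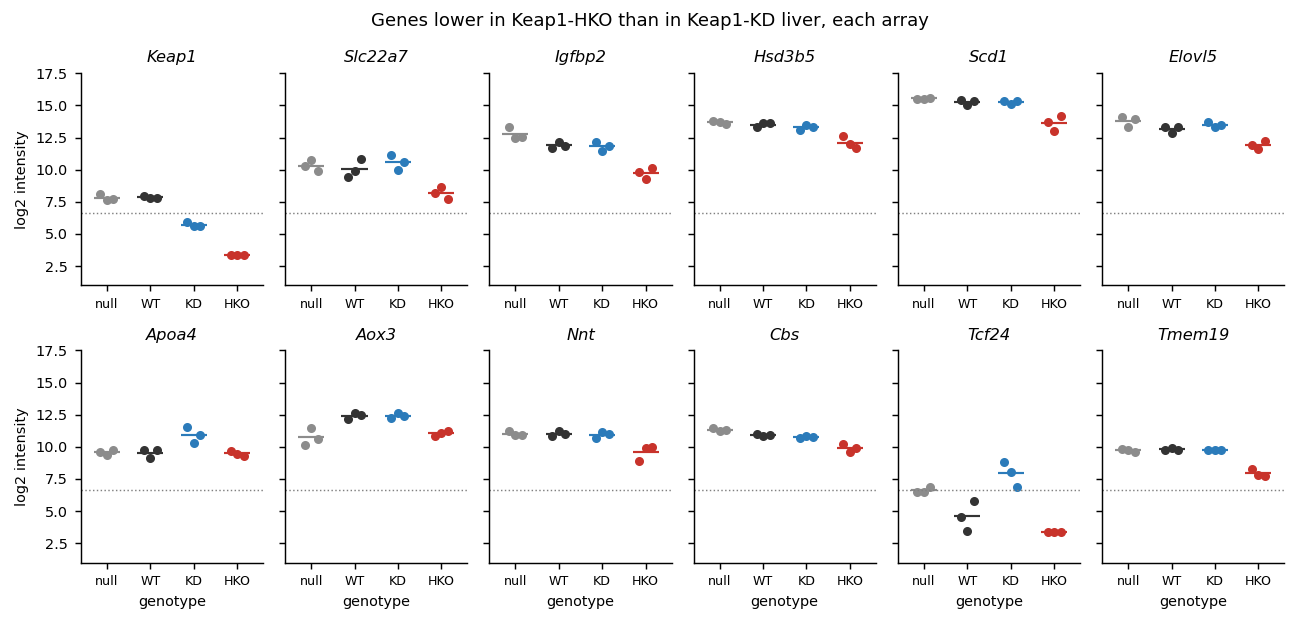
Log2 intensity (y axis) of 12 genes that were lower in Keap1-HKO than in Keap1-KD liver, on each array of the 4 genotypes (x axis; null stands for Nrf2-null, WT for Wild-type, and KD and HKO for the Keap1 genotypes). Points are mice, bars are means of 3 mice, and the dotted line is an intensity of 100. Apoa4 and Tcf24 are highest in Keap1-KD mice, while Scd1, Igfbp2, Hsd3b5 and Tmem19 have their lowest means in Keap1-HKO mice.

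Of 18 measured genes of the growth hormone axis and of sex-biased expression 0 rose and 2 fell by limma (0 and 7 at an unadjusted p under 0.05, 0 and 4 by Duncan's test), with a list median of −0.37. Igfbp2, a binding protein of insulin-like growth factors, read 12.17, 11.49 and 11.83 in Keap1-KD and 9.78, 9.29 and 10.09 in Keap1-HKO mice. It differed by −2.11 (standard error 0.29, limma adjusted p = 0.00657), 4.29-fold lower, and kept its call without each array in turn. Hsd3b5, a male-biased steroid reductase of mouse liver, read 13.11, 13.45 and 13.31 against 12.59, 11.97 and 11.70. It differed by −1.20 (standard error 0.21, limma adjusted p = 0.025), 2.23-fold lower, and its relative Hsd3b2 by −0.76 (standard error 0.14, limma adjusted p = 0.0267). Either call was lost in 6 of 12 fits without 1 array. Mup3, a male-biased urinary protein, differed by −1.07 (limma adjusted p = 0.257). Among the other lower genes, Serpina12 (vaspin), a secreted serpin, read 12.52, 12.06 and 13.01 against 10.97, 11.11 and 9.90, a difference of −1.87 (standard error 0.34, limma adjusted p = 0.0271), 3.56-fold lower. The Serpina12 call was lost in 4 of 12 fits without 1 array. Avpr1a, the vasopressin receptor of hepatocytes, read 7.89, 7.81 and 7.23 against 5.73, 5.85 and 5.53, a difference of −1.94 (standard error 0.23, limma adjusted p = 0.00221), at least 2.04-fold lower. Mmp14, a membrane metalloproteinase, read 7.73, 7.48 and 7.49 against 6.15, 6.10 and 6.37, a difference of −1.36 (standard error 0.15, limma adjusted p = 0.00101), at least 1.9-fold lower. The call of Avpr1a was lost with values raised to 100. Mmp14 was the 1 gene called among 12 collagen and matrix genes (1 higher and 2 lower at an unadjusted p under 0.05 and by Duncan's test). The rest of the 20 largest falls were Chic1 (−3.07), Spsb4 (−2.05), Rflna (−1.94), the pseudogene Adh6-ps1 (−1.91), Arhgap26 (−1.80), Dpy19l3 (−1.69) and Sdr9c7 (−1.60), given as log2 fold changes. Of these Sdr9c7 kept its call with values raised to 100.

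In amino acid and carbohydrate metabolism single genes fell. Cbs, cystathionine β-synthase, which opens the path from homocysteine to cysteine, read 10.66, 10.83 and 10.74 in Keap1-KD and 10.25, 9.57 and 9.89 in Keap1-HKO mice. It differed by −0.84 (standard error 0.16, limma adjusted p = 0.0388), 1.76-fold lower, and was the 1 gene called of 20 in methionine and one-carbon metabolism (0 higher and 4 lower at an unadjusted p under 0.05, 0 and 3 by Duncan's test). Slc3a1, a subunit of a transporter of cystine and dibasic amino acids, read 7.43, 6.97 and 6.71 against 6.18, 5.04 and 5.07, a difference of −1.60 (standard error 0.31, limma adjusted p = 0.0358), at least 1.34-fold lower. Ppp1r3b, which targets a phosphatase to glycogen, read 10.45, 10.45 and 10.16 against 8.98, 9.32 and 9.25. It differed by −1.17 (standard error 0.24, limma adjusted p = 0.0428), the 1 gene called of 21 in glucose and glycogen metabolism (2 higher and 3 lower at an unadjusted p under 0.05, 2 and 4 by Duncan's test). Cbs, Slc3a1 and Ppp1r3b each lost the call in 10 of 12 fits without 1 array, Ppp1r3b also with the replicate block (limma adjusted p = 0.0598), and Slc3a1 with values raised to 100. Glycogen branching enzyme (Gbe1) and glycogenin (Gyg) differed by 0.95 (limma adjusted p = 0.0767) and 1.11 (0.123), in the opposite direction.

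**Figure D4:**
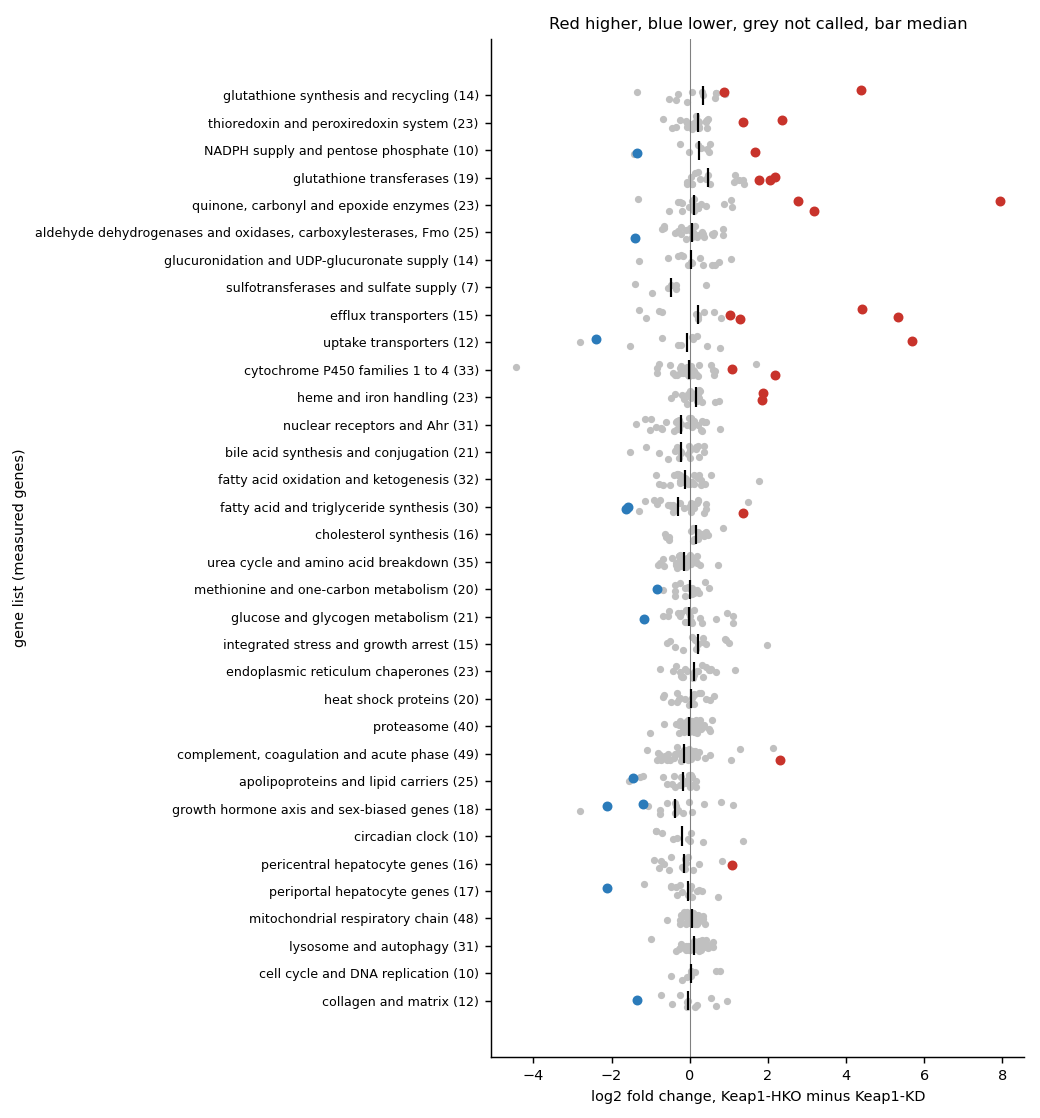
Log2 fold change of Keap1-HKO minus Keap1-KD (x axis) of each measured gene of 34 gene lists (y axis, with the number of measured genes). Red genes were called higher and blue genes lower by limma, grey genes were not called, and black bars are list medians, which lie between −0.47 and 0.45.

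Igfbp2 and Cyp1a2 were also the genes called among 17 periportal and 16 pericentral hepatocyte genes, with list medians of −0.06 and −0.14. In 15 of the 34 lists 0 genes were called by limma. They hold 348 genes, of which 35 (10.1%, beside 12.8% of all genes) had an unadjusted p under 0.05 and 27 (7.76%, beside 9.61%) passed Duncan's test, and their medians ran from −0.47 to 0.22 on the log2 scale. Among them were 40 proteasome subunits, with a median of −0.02 (2 higher and 0 lower at an unadjusted p under 0.05 and by Duncan's test). The 48 genes of the respiratory chain had a median of 0.06 and 0 at either threshold. For 21 bile acid genes, 16 of cholesterol synthesis, 32 of fatty acid oxidation, 35 of the urea cycle and amino acid breakdown, and 23 chaperones of the endoplasmic reticulum the medians were −0.22, 0.16, −0.11, −0.16 and 0.11. Nuclear receptors with Ahr (31 genes) had a median of −0.22.

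The step from Keap1-KD to Keap1-HKO was then set against the step from wild-type to Keap1-KD by testing the difference of both log2 changes in the same fit. In total 10 genes passed by limma (0.171% of 5856; 180 or 3.07% at an unadjusted p under 0.05), 7 with a higher (0.12%) and 3 with a lower change (0.0512%) in the step to Keap1-HKO. Osbpl3 changed by 0.08 in the step to Keap1-KD and by 4.40 in the step to Keap1-HKO, a difference of 4.32 (standard error 0.22, limma adjusted p = 9.87e-06). Slc22a12, with 0.01 and 5.69 (difference 5.68, standard error 0.56, limma adjusted p = 0.000975), and Slc1a1, with 0.00 and 4.91 (difference 4.91, standard error 0.39, limma adjusted p = 0.000189), were likewise near 0 in the step to Keap1-KD. So were Abcc12, with 0.04 and 4.41, and Gpx2, with 0.21 and 4.37, both with a limma adjusted p of 0.000189 for the difference. Cbr3 and Abcc4 moved in both steps, by 2.40 and 7.94 and by 1.45 and 5.33, and the differences of 5.54 and 3.87 had a limma adjusted p of 0.000189 each. All of these 7 had means under an intensity of 100 in Keap1-KD and wild-type mice, except Abcc4 in Keap1-KD mice, so for their step to Keap1-KD no fold is given. Except for Abcc4, they were listed only because Keap1-HKO mice were higher. That selection favours a larger second step, so the difference between the steps is no separate support. With values raised to 100, 5 genes passed for the difference, and 4 of the 10 were among them. For Nqo1 the steps were 2.09 and 3.19 (difference 1.10, limma adjusted p = 0.995), for Gstm3 1.97 and 2.19 (0.22, 0.995), for Gstm4 1.49 and 1.76 (0.28, 0.995) and for Gclc 0.66 and 0.88 (0.22, 0.995), so that a difference between the steps was not detected. For Cbr1, with 0.87 and 2.77, and Srxn1, with 0.70 and 2.35, the difference had a limma adjusted p of 0.354 and 0.0516. Of the 3 genes with a lower change, Tmem19, a membrane protein, read 9.78, 9.79 and 9.77 in Keap1-KD and 8.26, 7.85 and 7.72 in Keap1-HKO mice. Its steps were −0.04 and −1.84 (limma adjusted p = 0.0201 for the difference). Tcf24, a basic helix-loop-helix factor, read 8.81, 8.06 and 6.91 in Keap1-KD and 3.34 on each Keap1-HKO array, with a wild-type mean of 4.60. Its steps were 3.33 and −4.58 (difference −7.92, standard error 0.99, limma adjusted p = 0.00765), and it was at least 2.79-fold lower in Keap1-HKO than in Keap1-KD mice. Gm2788 was the third, with 0.14 and −2.62 (limma adjusted p = 0.0108). With values raised to 100 the calls of Tcf24 and Gm2788 between Keap1-HKO and Keap1-KD mice were lost. Both steps share the Keap1-KD arrays.

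The means of wild-type and Nrf2-null mice share no array with this comparison. The calls of both comparisons take the spread of each gene from the same fit of all 12 arrays, so they are not independent. Of the 46 risen genes 30 (65.2%) were higher in wild-type than in Nrf2-null mice, beside 47.3% of all 5856 genes. Many of the 46, such as Osbpl3, Slc1a1, Abcc12 and Gpx2, had means under an intensity of 100 in both of these groups. These 4 were listed because Keap1-HKO mice were higher, and their direction here has no measured fold. The 2 shares are therefore not like for like. By limma 2 of the 46 passed the test there, where 0.359% of all genes were called higher. These were Gstm3, with 3.63 (limma adjusted p = 0.0032), and Entpd5, a nucleotidase of the endoplasmic reticulum, with 1.02 (0.0295). Entpd5 rose by 0.93 (standard error 0.17, limma adjusted p = 0.0281) from Keap1-KD to Keap1-HKO mice, a call lost in 6 of 12 fits without 1 array. Of the 5 largest rises in Keap1-HKO mice, Cbr3 differed there by 0.27, Slc22a12 by −0.01, Abcc4 by 0.08, Anxa13 by −0.53 and Serpinb1a by 1.66, none of them called. All 5 had means under an intensity of 100 in both wild-type and Nrf2-null mice. Cbr1, which was well above 100 in both, differed by −0.03. In reverse, Ces1g, a carboxylesterase, differed by 4.25 (limma adjusted p = 4.51e-05) between wild-type and Nrf2-null mice and by 0.86 (0.201, and 0.0488 with the replicate block) between Keap1-HKO and Keap1-KD mice. Abcc3 differed by 2.90 (0.00147) and 0.79 (0.286) in the same order, and Aox1 by 2.77 (0.000346) and 0.85 (0.131). Of the 38 fallen genes 24 (63.2%) were lower in wild-type than in Nrf2-null mice, beside 52.7% of all genes. These shares are not like for like either, since 13 of the 38 had a Keap1-HKO mean under 100 and had to be listed through another genotype. Rflna was over 100 in Nrf2-null mice only, which fixed its direction here. Gm2788 passed the test as lower in wild-type mice, with −1.41 (limma adjusted p = 0.014), where 0.0512% of all genes were called lower. Aox3 was an exception, with 1.68 (limma adjusted p = 0.0295) between wild-type and Nrf2-null mice and −1.39 between Keap1-HKO and Keap1-KD mice, so that it was highest in wild-type and Keap1-KD liver.

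**Figure D5:**
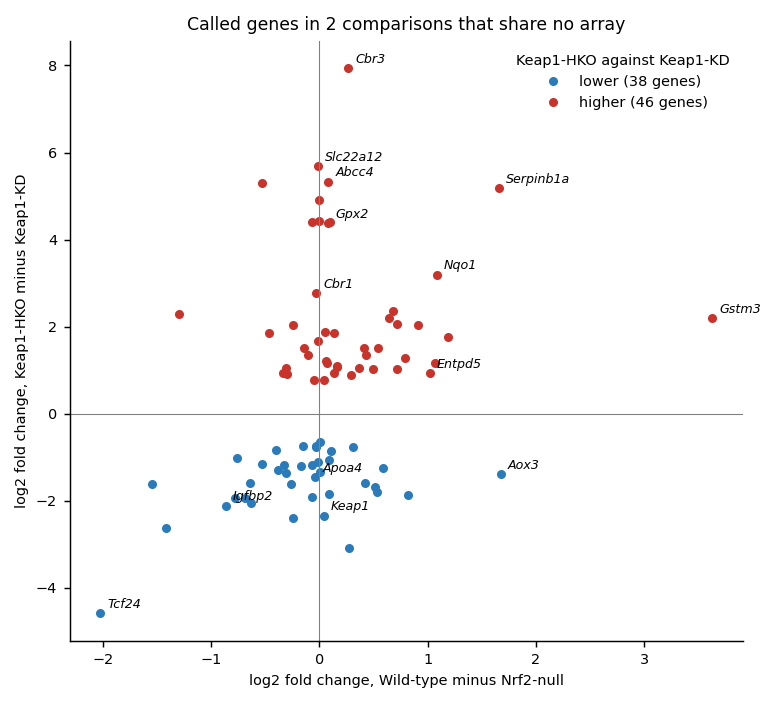
Log2 fold change of Keap1-HKO minus Keap1-KD (y axis) and of Wild-type minus Nrf2-null (x axis) of the 84 called genes, each point 1 gene. Red genes rose and blue genes fell in Keap1-HKO mice. Cbr3, Slc22a12, Abcc4 and Gpx2 stand near 0 on the x axis, and Gstm3 is highest on it with 3.63.

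The choice of probe set was checked with the other probe sets of the called genes. In all, 25 of the 84 genes had 39 further probe sets. Of these 38 had the same sign as the probe set used, and 36 had the same sign and an unadjusted p under 0.05. The exception in sign was a probe set of Nudt7, a peroxisomal hydrolase of coenzyme A.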

How the data were processed

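Liver RNA of 12 mice, 3 of each of 4 genotypes, was measured on Affymetrix mouse expression arrays, and the groups were taken from the sample labels. The deposited log2 values were made by the authors in R with gcRMA, which corrects background by probe sequence, normalizes quantiles between arrays and summarizes probe sets. Probe sets were kept where the intensity exceeded 100 in at least 1 genotype. Under that limit values can lie close together, with standard deviations in Keap1-KD mice of 0.0144 for Osbpl3 and 0 for Scd2. Log2 changes from there can exceed what the fold bounds show, as for Osbpl3 with 4.40 and at least 1.26-fold. The table holds 9622 probe sets with log2 values of 2.29 to 16.8 and array medians of 8.22 to 8.37. The number of arrays limits the precision.

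Here 8554 probe sets with a single gene symbol gave 5856 genes, each by the probe set with the highest mean over all arrays. Probe sets with several (371) or no symbols (653) were left out. All 12 arrays were fitted by genotype with limma 3.58.1 in R 4.3.3 (lmFit, eBayes), with contrasts for Keap1-HKO minus Keap1-KD, for that change minus Keap1-KD minus Wild-type, and for Wild-type minus Nrf2-null. P-values are two-sided and Benjamini-Hochberg adjusted over all genes, and genes under 0.05 are called. The methods' own procedure, an overall test with Duncan's multiple range test, was an alternative. Each array is 1 mouse, so the spread holds differences between mice and between sampled tissues and arrays, which cannot be told apart. The fit takes 1 spread per gene for all genotypes. Mean absolute deviations from the group mean were 0.28 to 0.60 on Keap1-HKO arrays and 0.11 to 0.15 on Keap1-KD arrays.

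Folds compare mean un-logged intensities. Where 1 group mean was under 100, the fold is against 100 and a lower bound, and where both were, none is given. Genes followed the pancreatic or muscle markers where they belonged to those lists or correlated with their median over the arrays by r above 0.9.

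Genes considered for naming were Keap1 and Nfe2l2, the 20 largest rises and 20 largest falls among called genes whose arrays did not overlap, the 8 lowest p of the second contrast, every called list member, and, from each list, the members of lowest p, at most 4, and values are given for those of known role. Gclm, Fth1 and some other uncalled members were named for their role, after their values were seen. Lists and rule were chosen with earlier results of these data known. Same-numbered arrays of Keap1-HKO and Keap1-KD deviated together with r of 0.215, 0.165 and 0.105, all above 0.1, and pairs of unlike number with r of −0.237 to 0.182, so that Keap1-HKO replicate 3 was closer to Keap1-KD replicate 2 than to replicate 3. By the rule set for it they were treated as paired in an alternative fit with the replicate number as a block. The labels do not say what a number shares. Promoter windows are from RefSeq. The fit was tested on simulated data.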

Additional observations from a re-analysis of the deposited data

Results flagged for a closer look

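Among the probe sets with several or no gene symbols, which belong to no gene of the comparison, 7 were called between Keap1-HKO and Keap1-KD mice by limma, 4 higher and 3 lower. They were 3 of 371 with several symbols and 4 of 653 with none, beside 84 of the 5856 genes (1.43%). Here the fit and the adjustment ran over all 9622 probe sets. A probe set shared by Cyp2a5 and Cyp2a4, P450 enzymes that hydroxylate coumarin and testosterone, read 14.37, 14.01 and 13.23 in Keap1-KD and 16.13, 16.01 and 16.15 in Keap1-HKO mice. It rose by 2.23 (standard error 0.36, limma adjusted p = 0.0171), and which of these genes gave the signal was not tested. A probe set shared by H2-Q9 and H2-Q7, class I histocompatibility genes, differed by −1.93 (standard error 0.35, limma adjusted p = 0.0278), and 1 shared by Esd, a formylglutathione hydrolase, and its pseudogene rose by 0.67 (limma adjusted p = 0.024). The other 4 had no symbol and differed by 1.14, −1.23, 1.38 and −1.31.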

How the results depend on the processing

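Between Keap1-HKO and Keap1-KD mice 84 genes were called, and 10 for the difference between the steps. All 84 kept their direction or had a difference of 0 in each of the 30 alternative settings. Their arrays did not overlap between the groups, so leaving out arrays could not turn a direction. Several other settings, such as the replicate block, left the difference itself unchanged. The kept direction is therefore no separate support. The call was kept by 20 genes without each array in turn, and by 7 in every setting. Leaving out each array in turn gave 21 to 114 genes and 8 to 28 for the difference between the steps. The count of 84 became 21 with only the 6 arrays of both groups, 20 for changes tested against 1.5-fold, 336 without the first replicates of Keap1-HKO and Nrf2-null mice (all 84 genes among them), and 563 by Duncan's test, which does not adjust over genes. The 10 became 5 with values raised to 100, 6 with an intensity trend, 78 with array quality weights and 39 without that pair. With the replicate number as a block the counts were 125 and 14, and the block changed no named call other than those given beside their genes and those of Csrp2, Fam220a, Nudt7, Tsc22d1 and Lifr. Chosen after seeing the data, leaving out Keap1-HKO replicates 2 and 3 gave 2735 and 86, and the block with only 6 arrays 11. The Gclm log2 fold change turned from 0.06 to −0.38 with the mean of its probe sets, to −0.81 with its probe set of largest spread and with every probe set on its own, and to −0.22 without Keap1-HKO replicates 2 and 3, and ran from −0.0836 to 0.196 without each array in turn. The cause of these shifts was not tested. With 3 mice a genotype and a median standard deviation of 0.291 within genotypes, small changes were not detectable, and genes under an intensity of 100 have no measured fold. In the other settings the count stayed between 70 and 109. The 109 came with array quality weights, and only 50 of the 84 genes were among them, so a like count does not mean like genes.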
